A study of Mus musculus with 6 samples.

Results

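The cadherin superfamily genes outside the clustered protocadherins were examined in mouse bone marrow macrophages: 22 cadherin genes, the FAT genes Fat1 to Fat4, the Dachsous genes Dchs1 and Dchs2, and the CELSR genes Celsr1 to Celsr3, together 31 of 21631 protein-coding genes. The members are a named gene family, but the family was selected on values from the same samples, because earlier results of the old against young contrast at Fat2 and Fat3 were known when it was taken up. Differences between the ages at these loci are therefore a description and support nothing by themselves.

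All cells came from wild-type (WT) BALB/c mice, either young (3 weeks old, 3 libraries) or old (over 78 weeks, 3 libraries), in a study of how the age of the marrow surroundings bears on B-cell leukaemia. Adherent cells of crushed long bones were grown in culture and typed by the submitters as F4/80+ CD169+, surface proteins of macrophages. Open chromatin was mapped by Omni-ATAC, in which a transposase cuts and tags accessible DNA, on 50000 cells per library. The labels do not say whether the replicates came from separate mice or cultures, so the p-values below weigh a difference only against library-to-library spread, part of which may be technical.

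Cadherins are calcium-dependent adhesion proteins whose extracellular repeats bind cadherins on the next cell. The tails of classical type I and type II cadherins bind catenins and through them the actin cytoskeleton, while FAT, Dachsous and CELSR proteins are very large cadherins that orient cells within a tissue, FAT and Dachsous also feeding into the Hippo growth pathway. Most of the family is known from epithelium, endothelium, mesenchyme or neural tissue, and E-cadherin, the product of Cdh1, is also made by alternatively activated macrophages.

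The deposited lists held 215947 to 254410 peaks per library and covered 48.2 to 66.1 Mb. The read depth behind them is unknown, so a locus without a peak is one where the authors' caller made no call. Each locus was the gene with 10 kb on either side, and its value was the length in bp lying under peaks, scaled so that every library had the same sum over all loci. Gene spans came without exon boundaries, so exons and introns were not told apart. Every value was taken from the whole deposited list and again from the 50000 peaks with the highest −log10 q in each library, called the strongest peaks here. All 10 macrophage marker loci, among them those of F4/80 and CD169, passed the minimum mean of 500 bp on the deposited lists, with summed lengths of 37927 to 38503 bp in young and 35646 to 38146 bp in old libraries. On the strongest peaks the same sums were 22186 to 23135 bp in young and 18341 to 19092 bp in old libraries, and the sums of the 14 mesenchymal stromal marker loci were 19526 to 21388 bp in young and 24736 to 26724 bp in old libraries. Neither pair of ranges overlapped. Every stromal marker locus had a strong peak in at least 1 library, but not each in all 6. Twist1 had one in old library 3 alone (1260 bp), and Lepr had none in young libraries 1 and 2. Of the 10 stromal loci that passed the minimum on the strongest peaks, 7 were on average higher in old libraries and 3 lower. Mertk, a macrophage marker locus, covered 4329, 4191 and 4935 bp of strong peaks in young and 3095, 2947 and 3079 bp in old libraries. The F4/80 locus, Adgre1, had a mean of 397.3 bp on the strongest peaks, below the minimum. In bulk samples fewer cells of a type and less open chromatin per cell cannot be told apart.

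The start sites of 4 members show how different the family's promoters are, so the 250 bases before the RefSeq start site (assembly GRCm38.p6, the mm10 chromosomes) are printed first. Capitals mark CpG dinucleotides, which are dense in promoters active across many tissues. The bases are written 5′ to 3′ on the strand of the gene. Fat3 lies on the minus strand at chr9:16502055-16502304, Cdh10 on the plus strand at chr15:18820079-18820328, Fat2 on the minus strand at chr11:55312258-55312507 and Cdh22 on the minus strand at chr2:165234738-165234987.
Fat3: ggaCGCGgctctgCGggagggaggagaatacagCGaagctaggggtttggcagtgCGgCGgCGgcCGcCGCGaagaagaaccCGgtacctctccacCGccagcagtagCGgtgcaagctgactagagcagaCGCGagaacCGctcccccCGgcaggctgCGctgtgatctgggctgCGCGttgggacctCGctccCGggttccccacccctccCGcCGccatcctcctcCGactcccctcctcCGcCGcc
Cdh10: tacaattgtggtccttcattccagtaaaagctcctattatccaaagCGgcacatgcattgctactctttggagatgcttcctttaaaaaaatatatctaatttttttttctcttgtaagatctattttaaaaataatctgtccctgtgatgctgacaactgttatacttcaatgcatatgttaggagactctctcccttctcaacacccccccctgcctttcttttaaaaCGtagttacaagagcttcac
Fat2: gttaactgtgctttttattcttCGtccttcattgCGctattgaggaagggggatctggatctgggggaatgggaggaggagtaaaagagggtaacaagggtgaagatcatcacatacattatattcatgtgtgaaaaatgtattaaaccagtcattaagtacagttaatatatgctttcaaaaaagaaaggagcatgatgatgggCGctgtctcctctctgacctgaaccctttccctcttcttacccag
Cdh22: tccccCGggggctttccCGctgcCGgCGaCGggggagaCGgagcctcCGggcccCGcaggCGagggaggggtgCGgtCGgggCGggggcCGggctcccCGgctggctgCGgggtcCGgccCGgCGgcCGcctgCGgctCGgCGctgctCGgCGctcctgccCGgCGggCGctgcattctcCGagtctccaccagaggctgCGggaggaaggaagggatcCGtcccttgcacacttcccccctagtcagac

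Among these, the Fat3 stretch held 27 CpG dinucleotides at 70.4% G and C, more CpG than 91.8% of 27025 RefSeq promoters. The Cdh22 stretch was richer still, with 30 CpG at 77.6% G and C. The stretches of Fat2 and Cdh10 held 3 and 2 CpG, against a median of 6 over all promoters. The GC-box letters GGGCGG, searched on both strands, occurred before the Cdh22 start but in none of the other 3 stretches, and in 32.9% of all promoters. The AP-1 letters TGANTCA occurred in none of the 19 members that the promoter table holds and in 6.87% of all promoters. A match of letters describes the sequence only and is not a measured site.

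Peaks at the start sites differed from member to member. Of the 300-base windows at the 19 listed starts, 5 (26.3%) had a peak in all 6 libraries, against 58.0% of 17274 genes, and 6 (31.6%) had none, against 33.8%. The CpG-rich Fat3 stretch was covered by peaks over 250 bases in each young library and over 223, 220 and 218 bases in old libraries 1, 2 and 3. At Cdh22 the young libraries had 153, 130 and 143 of the 250 bases under peaks and the old ones 250, 250 and 120. Cdh10 was the 1 member whose window had a peak in all 3 young libraries and in no old one. This was seen at 0.197% of all genes. There 82, 81 and 7 of the printed bases were covered, by peaks ranking 224853, 131872 and 60948. The pattern holds for the window only. When overlapping peaks of all libraries were merged, no region at Cdh10 had a peak in all 3 young and no old libraries. No peak touched the Fat2 stretch in any library. The listed starts of Fat2, Cdh10 and Fat3 lie inside the annotated gene spans, so the outer ends of these genes are not in the stretches shown.

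Of the 31 members, 28 passed the minimum of 500 bp on the deposited lists and 23 on the strongest peaks. Differences are given on the log2(bp + 200) scale as old minus young, fitted with limma over all tested loci, and a locus is called wider or narrower in old libraries at an adjusted p (Benjamini-Hochberg over all tested loci) under 0.05. On the deposited lists Cdh4 and Fat2 were called wider and Cdh10 and Fat3 narrower, where 0.39% of 16943 loci were called wider and 0.578% narrower. On the strongest peaks Cdh4, Cdh11 and Fat2 were called wider and Fat3 narrower, where 0.841% of 14380 loci were called wider and 0.438% narrower. All old values lay above all young values at 4 members and below them at 6 on the deposited lists, against 8.63% and 8.36% of loci. On the strongest peaks these counts were 5 and 4, against 9.88% and 10.5% of loci. Because the family was chosen with this contrast known, nothing is read from these shares. The median difference over the members tested was −0.09 on the deposited lists and 0.05 on the strongest peaks, beside 0.01 and −0.0019 over all loci. Members are long genes, with a median of 131.4 kb on the deposited lists against 22.5 kb for all tested loci.

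**Figure D1:**
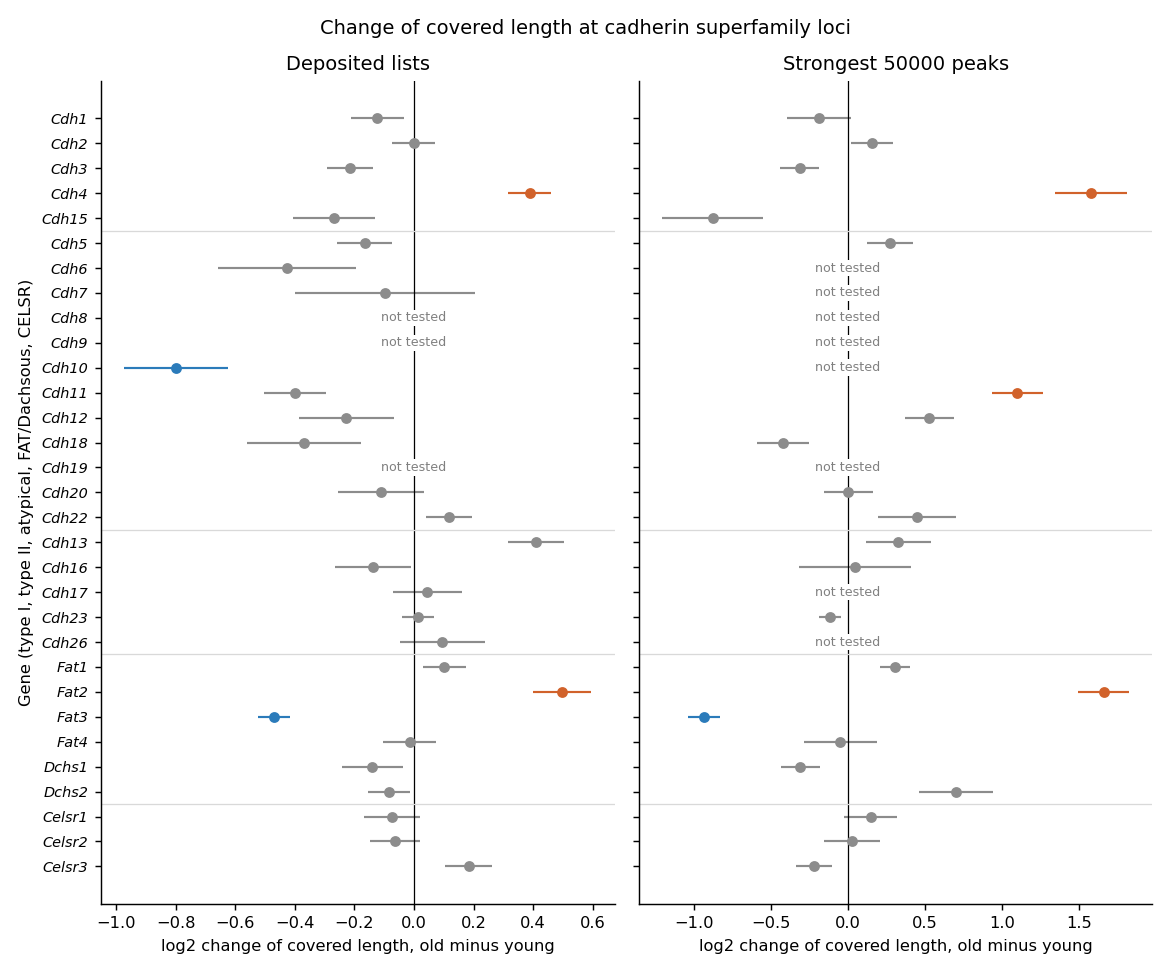
Difference in covered length, old minus young, on the log2(bp + 200) scale for each member on the deposited lists and on the strongest 50000 peaks, with bars of 1 standard error from limma. Orange points are loci called wider in old libraries, blue points loci called narrower, grey points loci not called, and members under 500 bp are written as not tested. Cdh4 and Fat2 lie on the wider side and Fat3 on the narrower side in both panels, while Cdh11 lies below 0 on the deposited lists and above it on the strongest peaks.

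Among the type I classical cadherins, Cdh4 was the member called. Cdh4 encodes R-cadherin, known from the retina and developing muscle and kidney, and lies on chromosome 2 from 179442423 to 179899377, with no other protein-coding gene in its locus. Its deposited length was 7018, 7069 and 6196 bp in young libraries 1, 2 and 3 and 8509, 9313 and 8892 bp in the old ones. Every old library lay above every young one. The difference was 0.39 (SE 0.07, adjusted p = 0.0143 by limma). Among the strong peaks the lengths were 722, 311 and 553 bp in young and 2046, 1507 and 2259 bp in old libraries, again without overlap, a difference of 1.58 (SE 0.23, limma adjusted p = 0.0278). The number of strong peaks at Cdh4 was 1, 2 and 2 in the young and 5, 3 and 6 in old libraries. Leaving out old library 2, old library 3 or young library 3 brought the adjusted p on the deposited lists to 0.0557, 0.0527 and 0.0771, and on the strongest peaks the call was lost without any 1 old library or young library 3.

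The Cdh4 regions that were strong in old libraries alone lay inside the gene. A region at 179705777 to 179706575, 263.8 kb from the left end of Cdh4, had a peak in all 6 deposited lists, but it was among the strongest 50000 only in the 3 old libraries. Deposited peaks touching it had close unscaled widths, 702, 682 and 691 bp in young and 607, 797 and 561 bp in old libraries. The authors' fold enrichment of the strongest peak of this region was 5.45, 4.63 and 5.8 in the young and 8.44, 6.01 and 6.83 in old libraries. A second Cdh4 region at 179672835 to 179673309 was likewise among the strong peaks of the 3 old libraries alone and had weaker peaks in all young lists. Deposited peaks touching it had unscaled widths of 204, 148 and 411 bp in young and 468, 305 and 475 bp in old libraries. Their highest authors' fold was 3.48, 3.25 and 3.41 against 5.73, 4.6 and 5.89. At both Cdh4 regions every fold of an old list was above every fold of a young one, which describes these lists and was not tested. The deposited-list regions of Cdh4 with the largest imbalance favoured young libraries instead: 179896031 to 179896119 had a peak in 2 young and no old libraries, and 179663813 to 179663923 and 179853632 to 179853954 each in 3 young and 1 old.

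The other type I members did not pass the threshold on either list. Cdh1, the gene of E-cadherin, had 4275, 4462 and 4628 bp in young and 4058, 4569 and 3641 bp in old libraries, with overlapping groups and a difference of −0.12 (SE 0.09). Cdh2, the gene of the neural and mesenchymal N-cadherin, had 8631, 7637 and 8315 bp in young and 8792, 7702 and 8083 bp in old libraries, and its difference of −0.0006 (SE 0.07) was close to 0. Among the strong peaks the differences were −0.19 (SE 0.21) at Cdh1 and 0.16 (SE 0.14) at Cdh2. Cdh3, the gene of P-cadherin, had lower deposited lengths in all 3 old libraries, at −0.21 (adjusted p = 0.216 by limma), and was called with a 50 kb flank on both lists and on the strongest 100000 peaks. Cdh3 ends at 106556911 on chromosome 8 and Cdh1 starts at 106603350, so the 50 kb flank of Cdh3 takes in part of Cdh1. Cdh15, the gene of the muscle M-cadherin, had a difference of −0.27 on the deposited lists and −0.88 on the strongest peaks, with overlapping groups on both.

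**Figure D2:**
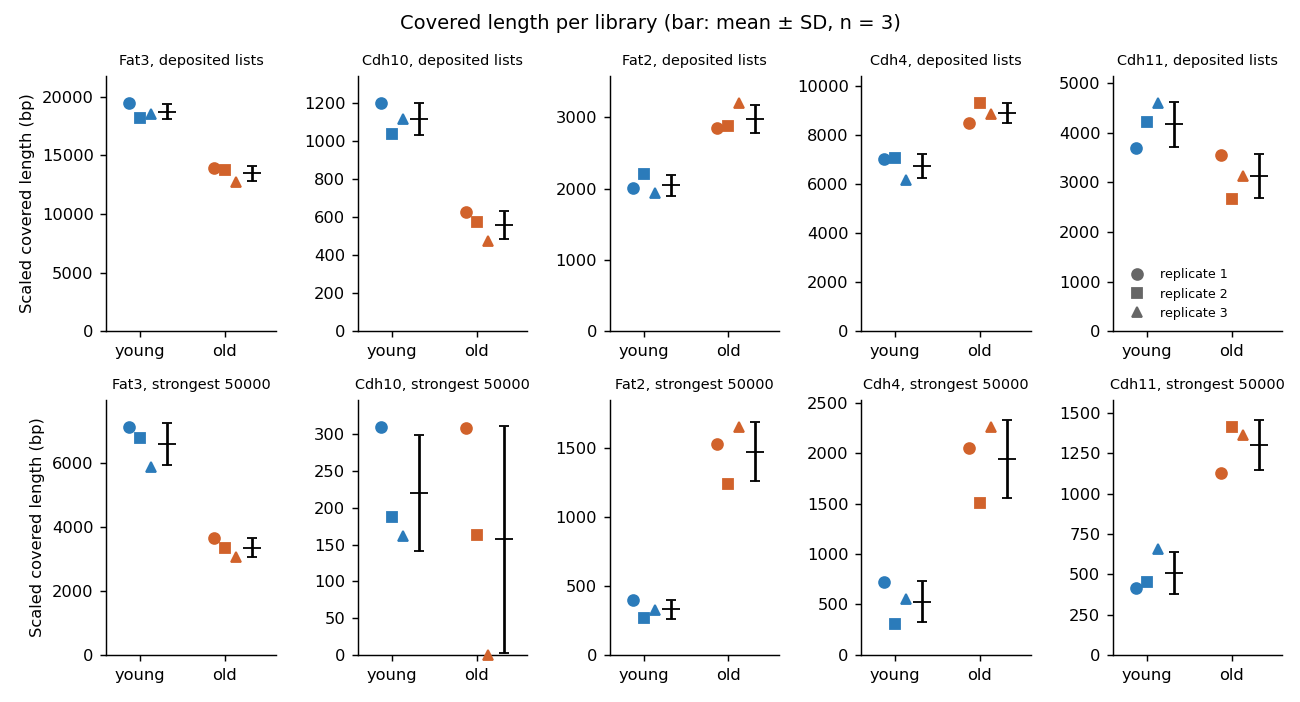
Scaled covered length in bp for the 5 members called on either list, young and old, on the deposited lists (upper row) and the strongest 50000 peaks (lower row), with each point a library and the bar beside each group its mean ± SD (n = 3). Groups of Fat3, Fat2 and Cdh4 do not overlap on either list, those of Cdh10 overlap on the strongest peaks, and those of Cdh11 do not overlap on either list but swap their order between the lists.

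The 12 type II cadherins ranged from no peak at all to several kb under peaks. Cdh19, known from Schwann cells, had no peak in any library, and Cdh8 and Cdh9, both known from neurons, had peaks in old libraries alone: Cdh8 107 bp in old library 3, Cdh9 127 bp in old library 1 and 290 bp in old library 3. These 3 were not tested. Of the 9 tested on the deposited lists, 8 had a negative difference and 1 a positive one, and 1 was called. The 6 tested on the strongest peaks went mostly the other way, with 5 positive and 1 negative and a median of 0.36. Over all loci 8835 differences were positive and 8108 negative on the deposited lists, and 7138 and 7242 on the strongest peaks. Cdh6, Cdh7, Cdh8, Cdh9 and Cdh19 had no strong peak in any library.

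Cdh10 was the type II member called on the deposited lists. It is a neuronal cadherin gene on chromosome 15 from 18818869 to 19016206. Peaks covered 1198, 1034 and 1114 bp of it in young and 626, 572 and 476 bp in old libraries. The lowest young library stood above the highest old one, and the difference was −0.80 (SE 0.17, limma adjusted p = 0.0323). The peaks behind these lengths were few, 7, 6 and 6 in young and 4, 5 and 3 in old libraries. Leaving out any 1 library other than old library 1 ended the call, with adjusted p from 0.0601 without old library 2 to 0.212 without young library 1. The strong peaks at Cdh10 covered 310, 188 and 162 bp in young and 308, 163 and 0 bp in old libraries, so the groups overlapped, and the locus stayed below the minimum for testing.

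At Cdh10 the regions with the largest imbalance toward young libraries sat near the gene's left end. One at 18818601 to 18818733 had a peak in 3 young and 1 old library, and a neighbour at 18818863 to 18818968 in 2 young and no old library. Both were weak, ranking no better than 94155 in any list that held them. Another, at 18832404 to 18832536, 13.6 kb from the left end in the gene body, had a peak in 2 young and 1 old library. The strongest region, at 18821311 to 18821658, was a strong peak in 3 young and 2 old libraries and was present as a weaker peak in the remaining old library.

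Cdh11 encodes the cadherin of osteoblasts and mesenchymal stroma and lies on chromosome 8 from 102632095 to 102785493. On the deposited lists it had 3697, 4224 and 4598 bp in young and 3560, 2674 and 3139 bp in old libraries. All old values were lower, with a difference of −0.40 (SE 0.10) that was not called (limma adjusted p = 0.0841), although it was called without old library 1 (−0.49, adjusted p = 0.0278). Its strong peaks covered 413, 450 and 654 bp in young and 1125, 1413 and 1362 bp in old libraries. Here all old values were higher, with a difference of 1.10 (SE 0.17, limma adjusted p = 0.0283). That call was kept without young library 3 and lost when any other single library was left out. On the strongest 100000 peaks the difference at Cdh11 was −0.10, on the other side of 0.

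At Cdh11 a region at the right gene end was a strong peak in the old libraries alone. The deposited peaks touching it were no wider in total there than in young libraries 2 and 3. In the deposited lists the number of peaks was 19, 20 and 21 in the young and 17, 12 and 14 in old libraries, and among the strong peaks it was 1, 1 and 1 in the young and 2, 3 and 3 in old libraries. Regions at 102704677 to 102704862 and at 102741664 to 102741759 in the Cdh11 gene body were called in all young and no old libraries, and they ranked no better than 139799 in any young list. That gene-end region of Cdh11 lay at 102784777 to 102785669. Deposited peaks touching it had total unscaled widths of 805, 1304 and 1310 bp in young and 700, 682 and 813 bp in old libraries. Whole peaks were measured, so bases outside the region, which is 893 bp wide, were included. These widths were smaller in old libraries 1 and 2 than in any young one and overlapped at old library 3. The ranks of the region's strongest peak were 52039, 66851 and 59951 in the young lists and 40193, 46932 and 33860 in the old ones, so the 50000 limit fell between the groups. The lists differ in length, and ranks set side by side show no change by themselves. The stromal marker sums given above moved in the same direction as Cdh11 on the strongest peaks, and their part in the Cdh11 values was not tested.

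**Figure D3:**
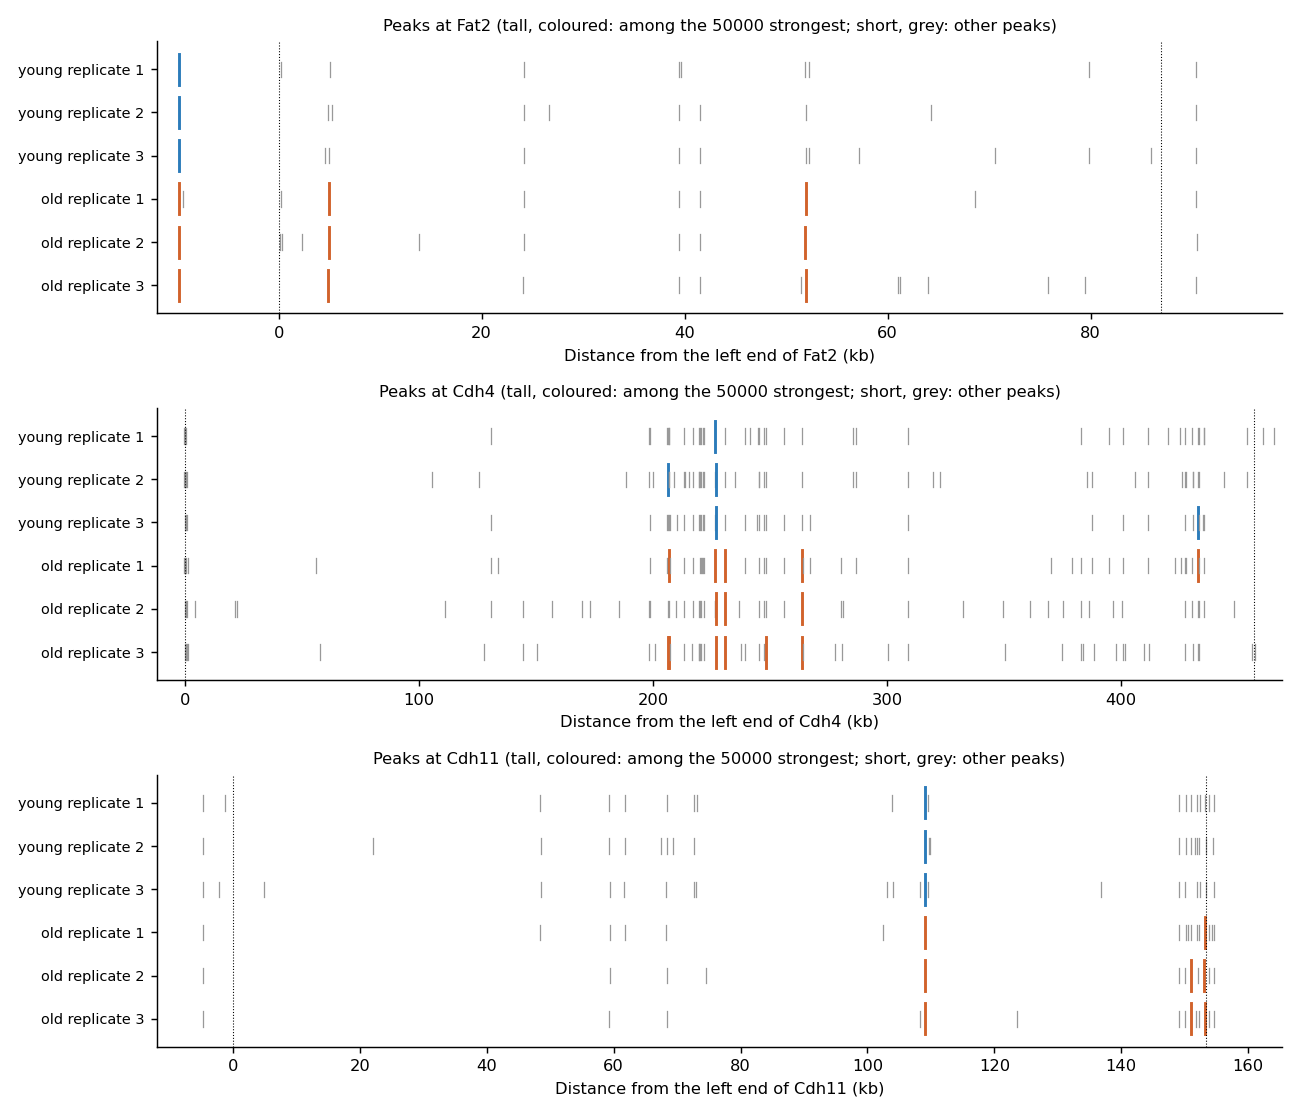
Peaks of each library along Fat2, Cdh4 and Cdh11, plotted by distance in kb from the left end of the gene. Tall coloured lines are peaks among the strongest 50000 and short grey lines the other deposited peaks. The old libraries hold 3 strong peaks each at Fat2, against 1 in each young library.

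Cdh5, the gene of the endothelial VE-cadherin, was not called on either list. It had 3133, 2779 and 2872 bp in young and 2525, 2751 and 2492 bp in old libraries, with all old values lower and a difference of −0.16 (SE 0.09). Its strong peaks covered 1270, 934 and 898 bp in young and 1269, 1423 and 1145 bp in old libraries, with overlap and a difference of 0.27 (SE 0.15). Of the 10 endothelial marker loci, Emcn, Cldn5 and Sox17 had no strong peak in any library, while Pecam1, Kdr, Tie1, Esam, Erg and Egfl7 had strong peaks in all 6 and Tek in 3. Together the endothelial loci summed to 6876 to 7899 bp in young and 7007 to 8210 bp in old libraries. Cdh6, known from the kidney, and Cdh7, Cdh12, Cdh18, Cdh20 and Cdh22, best known from the nervous system, were also tested on the deposited lists, and their groups overlapped there. Their differences ran from −0.43 at Cdh6 to 0.12 at Cdh22. Among the strong peaks Cdh12 was higher in every old library (0.53, adjusted p = 0.162 by limma) and Cdh18 lower in every old library (−0.42, adjusted p = 0.292).

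None of the 5 atypical cadherins was called. Cdh13 encodes T-cadherin, a lipid-anchored cadherin that binds adiponectin, and had 10574, 8786 and 11538 bp in young and 12405, 15037 and 13682 bp in old libraries. Its old values were all higher, with a difference of 0.41 (SE 0.10, limma adjusted p = 0.073), whereas its groups overlapped on the strongest peaks. Cdh13 was called on the deposited lists with a 50 kb flank, with quantile normalization and without old library 1 or young library 3. Cdh23, a component of the tip links of hair cells, had one of the largest covered lengths of the family, 17166 to 18917 bp in young and 17345 to 19340 bp in old libraries, and a difference of 0.01 (SE 0.05). The Cdh23 locus also takes in the genes Psap, Vsir and Gm17455, whose share of this length was not told apart. Cdh16, Cdh17 and Cdh26, known from kidney, gut and other epithelia, had differences of −0.14, 0.05 and 0.10. Cdh17 and Cdh26 had no strong peak in any library. Of the 10 epithelial marker loci, Epcam, Krt18, Krt14 and Cldn3 had none either, Krt8, Esrp1, Grhl2 and Elf3 had strong peaks in all 6 libraries, and the list summed to 2557 to 3964 bp in young and 2802 to 3932 bp in old libraries.

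Fat3 was called narrower in old libraries on both lists. Fat3 is known for shaping the dendrites of retinal amacrine cells, and the gene spans chromosome 9 from 15910189 to 16502681, a length of 592.5 kb. Its length under peaks was 19446, 18205 and 18505 bp in the young and 13905, 13786 and 12709 bp in old libraries, a mean of 18719 ± 648 against 13467 ± 659 bp (SD, n = 3 each). The lowest young library was above the highest old library. The difference was −0.47 (SE 0.05) on the deposited lists and stayed called when any 1 library was left out. The strong peaks at Fat3 covered 7122, 6786 and 5868 bp in young and 3647, 3352 and 3055 bp in old libraries, a difference of −0.93 (SE 0.10), and this call was lost without any 1 old library. Fat3 and Fat2 were known to pass the threshold when the family was taken up, so no p-value is given for them. Their calls, with all libraries or without 1, support nothing by themselves.

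Both the number and the mean width of Fat3 peaks, unscaled, were lower in every old library. There were 78, 66 and 78 deposited peaks in young and 61, 59 and 56 in old libraries, with mean widths of 271, 258 and 272 bp against 254, 199 and 197 bp. Over the whole lists the median peak width, a measure unlike these means, was 139 to 169 bp and its ranges overlapped between the ages. Old libraries 2 and 3 also had the smallest covered length over their whole lists, 48.2 and 49.0 Mb. How far the Fat3 widths follow the whole lists was not tested. Strong peaks at Fat3 numbered 14, 13 and 11 in young and 8, 6 and 8 in old libraries. On the strongest 25000 peaks the difference at Fat3 was 0.13, on the other side of 0.

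The peaks that set the ages apart at Fat3 lay at several places in the gene body. Regions at 16138604 to 16138741, 15971073 to 15971127 and 16321531 to 16321746 had a peak in every young and no old library, and all were weak, ranking no better than 106792 in any Fat3 list. Among the strong peaks, regions at 16310321 to 16310620 and at 16305396 to 16306102, about 400.3 and 395.6 kb from the left end of Fat3, were present in the young libraries alone. The first of these Fat3 regions still had a peak in every deposited list. The unscaled widths of peaks touching it were 248, 300 and 280 bp in young and 208, 179 and 176 bp in old libraries. Its authors' fold was 4.28, 4.26 and 4.4 in the young and 3.5, 3.38 and 3.38 in old libraries. The second did not separate the ages in this way. Peaks touching it had unscaled widths of 629, 582 and 707 bp in young and 643, 570 and 562 bp in old libraries. Its folds of 4.53, 4.41 and 4.76 overlapped with 4.81, 4.23 and 3.84, and its ranks in the old lists were 53853, 52215 and 77608. The strongest shared region of Fat3, at 16215085 to 16215842, ranked between 5324 and 13362 in the 6 lists, so the locus kept strong peaks at both ages.

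**Figure D4:**
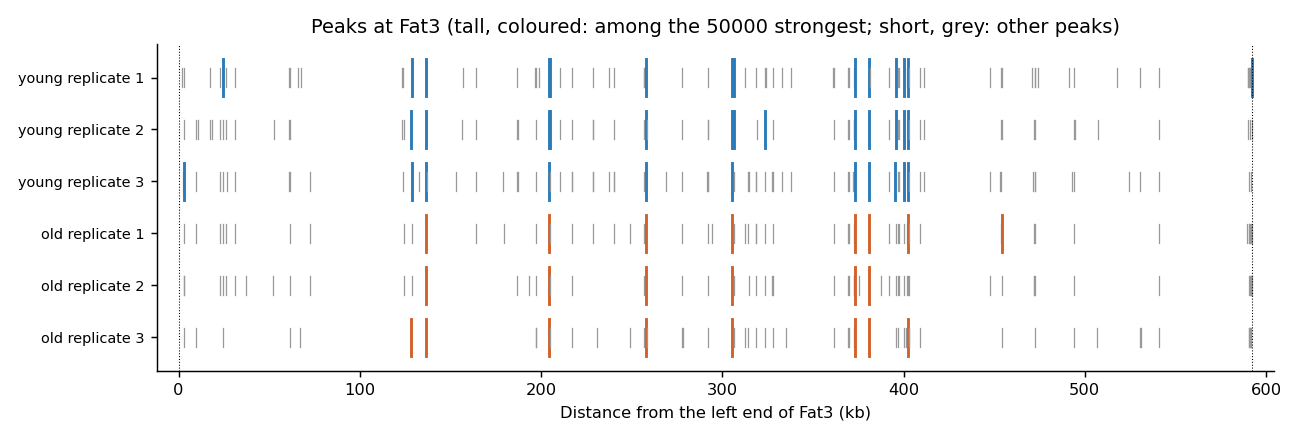
Peaks of each library along Fat3, plotted by distance in kb from the left end of the gene, with dotted lines at both gene ends. Tall coloured lines are peaks among the strongest 50000 and short grey lines the other deposited peaks. Strong peaks number 14, 13 and 11 in the young libraries and 8, 6 and 8 in the old ones.

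Fat2 changed in the other direction. Fat2 is best known from cerebellar granule cells and lies on chromosome 11 from 55250609 to 55337505. It had 2003, 2213 and 1933 bp in young and 2848, 2885 and 3200 bp in old libraries, a mean of 2049.8 ± 146 against 2977.5 ± 193 bp (SD, n = 3 each). The groups did not overlap, and the difference was 0.50 (SE 0.10). The number of deposited peaks was alike, 10, 10 and 13 in young and 10, 11 and 13 in old libraries, while their mean width was 225, 207 and 175 bp against 321, 228 and 218 bp. The strong peaks at Fat2 covered 400, 267 and 324 bp in young and 1529, 1238 and 1656 bp in old libraries, a difference of 1.66 (SE 0.17). The call on the deposited lists was lost without young library 1, young library 3 or old library 3, and that on the strongest peaks without old library 1 or old library 3.

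The strong peaks that Fat2 gained were again regions called at both ages. Each young library had 1 strong peak in the locus, in the flank at 55240531 to 55241034, and each old library had that one and 2 more. The first of these lay at 55302287 to 55302905. Deposited peaks touching it had unscaled widths of 433, 198 and 257 bp in young and 555, 403 and 619 bp in old libraries. Its rank was 80441, 89360 and 69449 in the young lists and 39426, 30381 and 31161 in the old ones. The second, at 55255205 to 55255968 near the left end of the Fat2 gene, ranked 74327, 88265 and 60246 in the young lists and 47068, 32810 and 47078 in the old ones. Among the deposited lists, the Fat2 region with the largest imbalance, at 55330420 to 55330520, had a peak in 2 young and no old libraries, against the direction of the whole locus. Regions at 55330038 to 55330129 and 55311632 to 55311660 had a peak in 1 old library each. Of the 9 macrophage marker loci tested on the strongest peaks, 8 had a negative difference and 1 a positive one. Only Mertk was called, as narrower (−0.53, limma adjusted p = 0.0347). The macrophage marker sums on the strongest peaks were lower in old libraries, as Fat3 was. The stromal marker sums on the strongest peaks were higher, as Fat2 and Cdh4 were. On the deposited lists Fat2 and Cdh4 were also called wider. There the stromal sums overlapped, at 67905 to 74550 bp in young and 67997 to 74005 bp in old libraries. Of the 14 stromal loci tested there, 4 were on average higher in old libraries and 10 lower. The part of the marker sums in these values was not tested.

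The remaining FAT and Dachsous genes were not called on either list. Fat4 and Dchs1, which bind each other across neighbouring cells, had differences of −0.01 (SE 0.09) and −0.14 (SE 0.10) on the deposited lists, with overlapping groups. Dchs1 was lower in every old library on the strongest peaks, at −0.31 (adjusted p = 0.293 by limma). Fat1, a broadly expressed regulator of actin and growth, had 3542, 2853 and 3290 bp in young and 3825, 4224 and 4015 bp in old libraries on the strongest peaks. All its old values were higher, but the difference of 0.30 was not called (adjusted p = 0.197 by limma). Dchs2 had a difference of −0.08 on the deposited lists and 0.70 on the strongest peaks, and its groups overlapped on both.

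The CELSR genes, vertebrate relatives of the fly polarity gene flamingo, were not called on either list. Celsr3, which guides axons, had the most length under peaks for its size, 84.585 bp per kb of locus on the deposited lists, but its locus also takes in the neighbouring genes Nckipsd and Slc26a6. Its values were 3777, 3677 and 3663 bp in young and 4066, 4423 and 4220 bp in old libraries. All old values were higher, with a difference of 0.18 (SE 0.08, limma adjusted p = 0.338), and the difference on the strongest peaks was −0.22 (SE 0.12) with overlapping groups. Celsr1, known from skin and inner ear, and Celsr2, known from neurons, had differences of −0.07 and −0.06.

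Over the whole family the peaks lay mainly inside the genes. The stretch within 1 kb of a gene end held 7.07% to 9.0% of the covered length at member loci in the 6 deposited lists, against 25.6% to 28.1% at all loci, and the gene bodies 80.4% to 82.9% against 58.9% to 61.3%. Among the strong peaks the gene ends held 6.55% to 8.84% at members and 39.7% to 41.8% at all loci. The members' greater gene length goes with these shares, and its part in them was not tested. When overlapping peaks of the 6 libraries were merged, the member loci held 1240 regions, of which 301 (24.3%) had a peak in every library and 602 (48.5%) in a single library, against 31.2% and 39.9% at all loci. Regions with a peak in all 3 young and no old libraries numbered 18 (1.45%, against 1.35%), and those in all 3 old and no young libraries 8 (0.645%, against 0.469%). Among the strong peaks these counts were 5 and 10 of 147 regions, or 3.4% and 6.8%, against 2.4% and 2.95% at all loci. Without 1 library a region needed fewer lists to count, and 35 to 56 regions of one age were then found in place of the 26 above.

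Catenins link classical cadherins to actin, and none of the 18 genes of catenins and junction adaptors was called on the deposited lists, and none of the 17 tested on the strongest peaks. Ctnnb1, the gene of beta-catenin, had differences of 0.11 and 0.16 on the deposited lists and the strongest peaks, Ctnna1, the gene of alpha-catenin, of −0.05 and 0.30, and Ctnnd1, a catenin gene of the membrane-near tail, of −0.23 and −0.07. No planar cell polarity partner of CELSR (16 tested) and no Hippo pathway gene (22 tested) was called on the deposited lists, nor any of the 14 and 22 tested on the strongest peaks. The Hippo loci summed to 45146 to 49341 bp in young and 53455 to 56364 bp in old libraries on the strongest peaks, ranges that did not overlap, with a median difference of 0.08. The stromal marker sums on the same peaks, 19526 to 21388 bp in young and 24736 to 26724 bp in old libraries, were also higher in every old library, and their part in the Hippo sums was not tested. On the deposited lists the Hippo sums overlapped, at 118110 to 122910 bp in young and 120158 to 124768 bp in old libraries.

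Related cadherins and the repressors of Cdh1 gave 1 call. Of 20 other cadherin superfamily genes tested on the deposited lists, Pcdh7, a protocadherin gene outside the clusters, was called narrower, with 7527, 6601 and 7460 bp in young and 5669, 5407 and 5247 bp in old libraries. Its groups did not overlap and the difference was −0.39 (SE 0.08, limma adjusted p = 0.0172), while on the strongest peaks the groups overlapped and the difference was −0.16 (SE 0.30). None of the 4 desmosomal cadherins tested was called on the deposited lists and none reached the minimum on the strongest peaks. Of the 8 genes of transcription factors that act on Cdh1 in the epithelial to mesenchymal transition, such as Snai1 and Zeb1, none was called on either list. These counts stand beside all loci tested, of which 164 were called on the deposited lists and 184 on the strongest peaks.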

How the data were processed

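Omni-ATAC libraries, 3 young and 3 old, were compared through the deposited broad peak list of each library. Per the submitters' processing notes, MACS2 2.1.0.20140616, Bowtie2 2.2.6, Picard, SAMtools, cutadapt 1.14 and Trim Galore 0.4.4 were used with mm10. No source used here gives their settings. In each list the authors give a score, a fold enrichment ratio, a −log10 p and a −log10 q per peak. These are the deposited values of single peaks and served to describe and rank peaks, the −log10 q to choose the strongest 50000. Where folds or ranks of one region are set side by side across lists, each is its own list's value and no test was made. Widths given per library for a named region are the summed widths of whole deposited peaks touching it. They were not scaled, unlike the locus lengths.

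Covered length per locus was computed from each library's own peak intervals for 21631 protein-coding genes of RefSeq GRCm38.p6 on chromosomes 1 to 19 and X. It was scaled to equal library sums. Where the mean was at least 500 bp, log2(bp + 200) was tested with limma 3.58.1 (R 4.3.3, trend and robust variance). The fitting script was tested on simulated data. For the region counts alone, peaks were merged across libraries at 1 bp of overlap. Promoter sequences were taken from a RefSeq table that held 19 of the 31 members. No sequence was read from a genome.

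The members and lists were chosen with earlier results of these data known. Lengths per library are given for members past the threshold, members apart on both lists, Cdh1, Cdh2, Cdh5 and Cdh11, and the members with most and least covered length per kb. Up to 3 regions per called locus were named by the difference in libraries between the ages and then by rank. Values of other members and the further regions named (the Fat2 flank, the shared Fat3 region) were added after their values were seen. Alternatives were other scalings, pseudocounts, filters, flanks, list lengths, peak numbers, a covered-length covariate, leaving out each library and a replicate block.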

Additional observations from a re-analysis of the deposited data

How the results depend on the processing

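The counts of called members, 4 on each list, depended on the processing. On the deposited lists limma called 4 with a replicate block, and also with no flank or either other pseudocount, 5 with a 50 kb flank (Cdh10 lost, Cdh3 and Cdh13 gained) or quantile normalization (Cdh13 gained), 1 (Fat3) with the covered length as a covariate or with peaks of −log10 q of at least 2, and 0 with no filter, no scaling, peak numbers or −log10 q of at least 5. Over all loci these last 4 fits called 4, 15, 17 and 9 at the adjusted threshold and 2217, 1401, 1528 and 1460 at an unadjusted p under 0.05. Without scaling the median of all loci was −0.14. With a 50 kb flank, quantile normalization, the covariate and −log10 q of at least 2, 292, 182, 62 and 146 of all loci were called. Leaving out each library gave 1 to 6 called members. Fat3 was among them each time, but it was known to pass the threshold when the family was taken up. Called members numbered 6 without old library 1, 1 without old library 3 and 4 without young library 2 (Cdh18 in place of Cdh10). Leaving out any of the other 3 gave 2. The counts over all loci moved too. They were 341, 75 and 57 without old libraries 1, 2 and 3, and 29, 124 and 64 without young libraries 1, 2 and 3.

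On the strongest peaks limma called 0 members with the replicate block, the covariate, no scaling, peak numbers or the strongest 25000, and over all loci these fits called 0, 0, 5, 197 and 167 adjusted and 2174, 1850, 1879, 963 and 1633 unadjusted. It called 3 with no flank (Cdh11 lost) or with the strongest 100000 (Cdh3, Cdh4 and Fat3), 5 with a 50 kb flank (Cdh3 gained), and 0 to 3 when each library was left out, 0 without old library 1 or 3, 1 without old library 2 and 3 without any young library. With no flank, the strongest 100000 and a 50 kb flank, 162, 242 and 311 of all loci were called. The counts over all loci were 3, 10 and 11 without old libraries 1, 2 and 3. They were 53, 85 and 108 without young libraries 1, 2 and 3. Without scaling the median of all loci was −0.11. Same-numbered libraries deviated together with r of 0.14, 0.14 and −0.16 on the deposited lists and 0.04, 0.05 and 0.03 on the strongest peaks, so the numbers were not taken as pairs.

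Regions of one age numbered 26 in the deposited lists, 23 when shared regions needed more overlap, 22 at −log10 q of at least 2, 15 among the strongest peaks and 35 to 56 when each library was left out. Of 296 alternative values of the named members, 216 kept direction and side of the threshold, 63 lost the call, 1 gained it and 16 changed sign. Those that changed sign were Cdh2 on the deposited lists (0.067 with the covariate, 0.038 with no flank, 0.0041 with quantile normalization, 0.16 at −log10 q of at least 5, and above 0 without old library 2, old library 3, young library 1 or young library 3, within −0.0514 to 0.0419 over all 6), Cdh1 at −log10 q of at least 5 (0.059), Cdh5 by peak numbers (0.14), Fat3 on the strongest 25000 (0.13), and on the strongest 100000 Cdh1 (0.72), Cdh11 (−0.10), Cdh2 (−0.041), Cdh5 (−0.28) and Celsr3 (0.10). The cause was not tested. The read depth is unknown, so a missing peak cannot be told from too few reads.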
